A study of Mus musculus with 4 samples.

Results

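The annexins are a gene family, and 10 of its mouse members were considered here: Anxa1 to Anxa9 and Anxa11. They were chosen by name, and the family was proposed with the large difference in Anxa8 on these 4 arrays already known. A member was read from each probe set that the platform annotation gives that single symbol, which found 9 of the 10, with 1 probe set each. These 9 stood among 22180 genes with a single symbol, 13056 of which lay above background. The remaining member, Anxa11, shares all its annotated probe sets with other symbols and was left out of the comparison. Anxa10 and Anxa13, the other annexin genes on the array, lay below background on average.

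RNA came from 4T1Br cells, which derive from 4T1, a mouse mammary carcinoma line, and home to the brain (the sample titles say 4T1). The 2 shControl arrays measured cells with a control lentiviral hairpin, and the 2 shYTHDF3 arrays measured cells with a lentiviral hairpin against YTHDF3, a cytoplasmic reader of N6-methyladenosine in messenger RNA. All cells had been selected with puromycin. Neither the number of hairpins nor separate cultures are stated in the labels, so the spread between the arrays of a group may be technical.

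Annexins are cytosolic proteins that bind acidic phospholipids when calcium rises, through a conserved core of repeats. Their variable amino-terminal tails bind partner proteins, many of them small calcium-binding proteins of the S100 family. Annexins are known for roles in membrane repair, vesicle traffic, the control of inflammation and the handling of plasmin at the cell surface.

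Anxa8 was much lower on both shYTHDF3 arrays, Anxa9 and Anxa5 were moderately higher, Anxa2 was moderately lower, and the other 5 measured annexins differed by less than 0.15 on the log2 scale. Each difference is the shYTHDF3 mean less the shControl mean on the log2 scale, and its standard error (SE) is limma's. Since the family was proposed with this contrast in view, the members' values are a description and carry no test. The hairpin's target, Ythdf3, read 8.98 and 8.81 in shControl against 8.21 and 8.16 in shYTHDF3. It fell by 0.71 (SE 0.10, limma adjusted p = 0.0355) and stood at 61.1% of the shControl level. Without a filter on dim probe sets this call was lost (limma adjusted p = 0.0866), as it was when any 1 array was left out (limma adjusted p from 0.141 to 0.188).

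Anxa8 encodes an annexin first described as an anticoagulant protein. Its log2 values were 6.95 and 7.28 in shControl against 5.26 and 5.45 in shYTHDF3. Both shYTHDF3 values lay below both shControl values, with a gap of 1.50 between the groups. The 2 arrays of a group differed by 0.33 in shControl and by 0.20 in shYTHDF3. The means were 7.12 ± 0.24 and 5.35 ± 0.14 (SD, n = 2 each), a difference of -1.76 (SE 0.14). Anxa8 RNA in shYTHDF3 thus stood at 29.4% of the shControl level, still above the background level of 4.28. By absolute difference it was number 12 of the 13056 genes tested, and with any 1 array left out its difference ran from -1.93 to -1.60.

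Anxa9 encodes an unusual annexin whose core has lost residues that bind calcium. It read 5.26 and 5.05 in shControl against 5.72 and 5.65 in shYTHDF3, so that the groups did not overlap. Its difference of 0.53 (SE 0.11) was the largest upward one in the family and put shYTHDF3 at 144% of the shControl level. Anxa9 was the dimmest measured annexin in shControl, nearest to the background level of 4.28. With any 1 array left out its difference ran from 0.43 to 0.63. Of all genes tested, 5.09% had a larger absolute difference.

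Anxa5 encodes the annexin whose binding to exposed phosphatidylserine is used to stain dying cells. It read 11.53 and 11.57 in shControl against 11.89 and 11.85 in shYTHDF3. The groups were separated by 0.28, whereas the arrays of a group differed by 0.04 in both groups. The difference was 0.32 (SE 0.09), which is 124% of the shControl level.

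Anxa2 encodes the annexin that pairs with S100A10 in a complex that binds plasminogen and its activator at the cell surface. It read 10.44 and 10.45 in shControl against 10.19 and 10.16 in shYTHDF3. Both shYTHDF3 values were lower, with a gap of 0.25 between the groups. The difference was -0.27 (SE 0.09), which is 82.8% of the shControl level. Anxa2 and Anxa5 therefore went opposite ways by similar amounts.

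**Figure D1:**
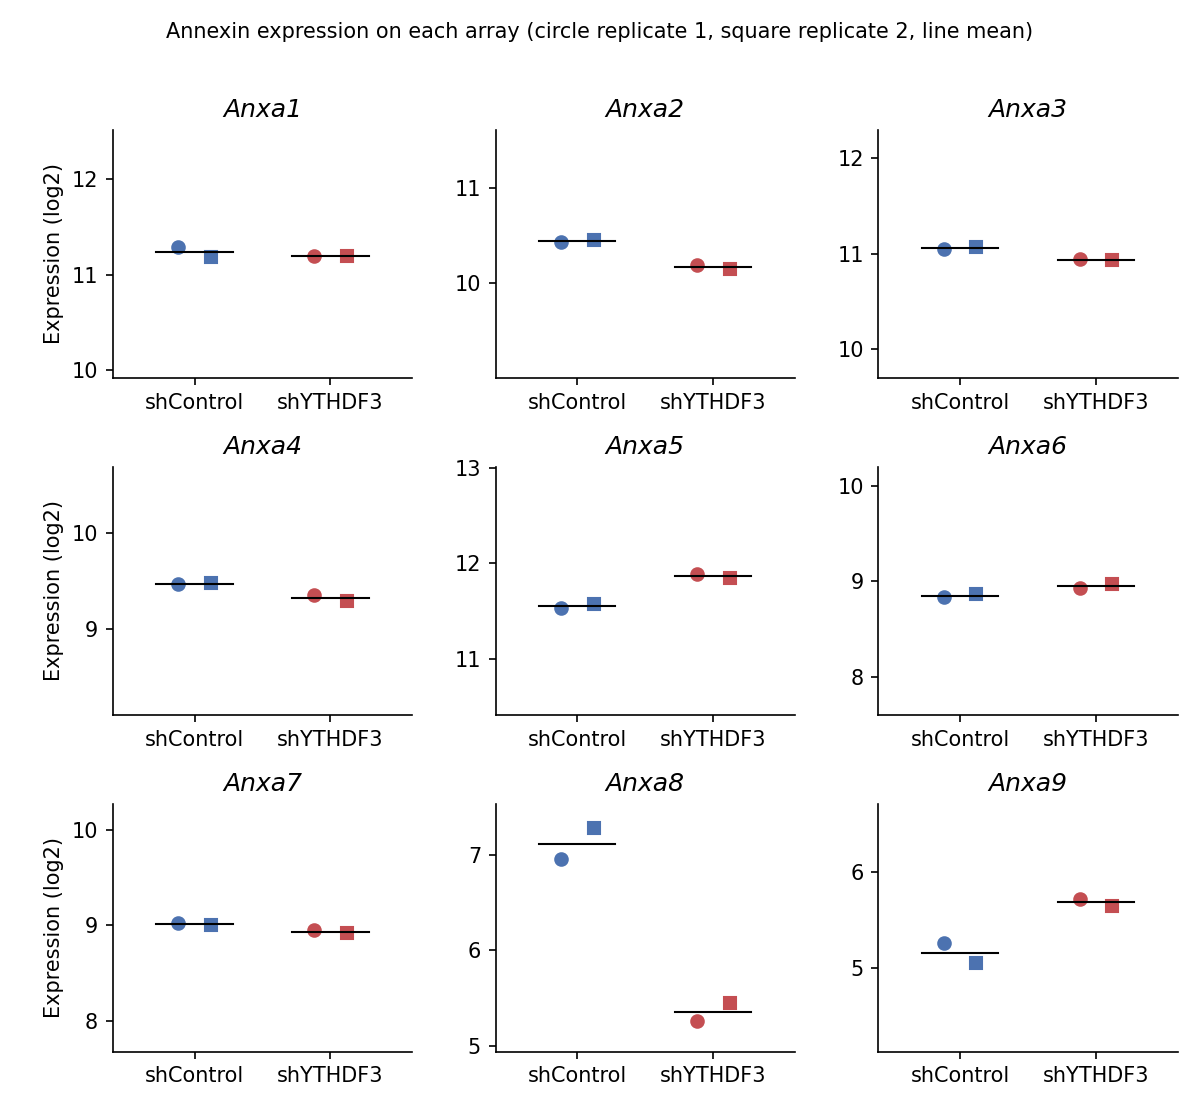
Log2 expression of the 9 measured annexins, 1 panel a gene, on the shControl arrays (blue) and the shYTHDF3 arrays (red), with circles for replicate 1, squares for replicate 2 and lines for the group means. Every panel spans the same log2 range but starts at its own level. Anxa8 shows the widest gap between the groups, 1.50, and Anxa1 is the only gene whose groups overlap.

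The other members differed little. Anxa4, found at the apical membrane of secretory epithelia, read 9.47 and 9.48 in shControl against 9.35 and 9.30 in shYTHDF3, a difference of -0.15 (SE 0.09). Anxa3, once named lipocortin III, read 11.05 and 11.07 in shControl against 10.94 and 10.93 in shYTHDF3, a difference of -0.12 (SE 0.09). In both genes the shYTHDF3 arrays were the lower ones, by more than the SE.

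Anxa6, a large annexin that carries a tandem copy of the core, read 8.83 and 8.86 in shControl against 8.93 and 8.97 in shYTHDF3. Its difference of 0.10 (SE 0.09) was upward. Anxa7, also called synexin and known for membrane fusion, read 9.02 and 9.00 in shControl against 8.94 and 8.92 in shYTHDF3, a difference of -0.08 (SE 0.09). Both differences were about as large as, or smaller than, their SE.

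Anxa1 encodes an annexin that is induced by glucocorticoids and restrains inflammation when secreted. It read 11.29 and 11.19 in shControl against 11.20 and 11.20 in shYTHDF3. Both shYTHDF3 values lay between the shControl values. The difference was -0.04 (SE 0.09), and its sign turned when quantile normalization was applied once more (0.013) and without shControl replicate 1 (0.0068).

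Read as a group, the annexins did not share a direction: 3 of the 9 were higher on both shYTHDF3 arrays, 5 were lower on both, and 1 overlapped. Groups without overlap thus made up 88.9% of the measured annexins, beside 54% of all 13056 genes tested (28.3% higher and 25.7% lower), and no test is made of that difference. With Benjamini-Hochberg adjustment over all genes, limma called 1 of the 9, Anxa8, beside 2.73% of all genes (1.28% higher and 1.45% lower), and nothing is read from that count because the same contrast led to the choice of the family. With any 1 array left out, a fit with fewer residual degrees of freedom that called hardly any of all genes, Anxa8 lost its call. Its difference then ran from -1.93 to -1.60. The median difference was -0.08 over the 9 annexins and 0.0057 over all genes tested. The median absolute difference was 0.147 for the annexins and 0.148 for all genes. Apart from Anxa8 and Anxa9, every member lay between the 5th and 95th percentiles of all differences, -0.40 and 0.42.

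**Figure D2:**
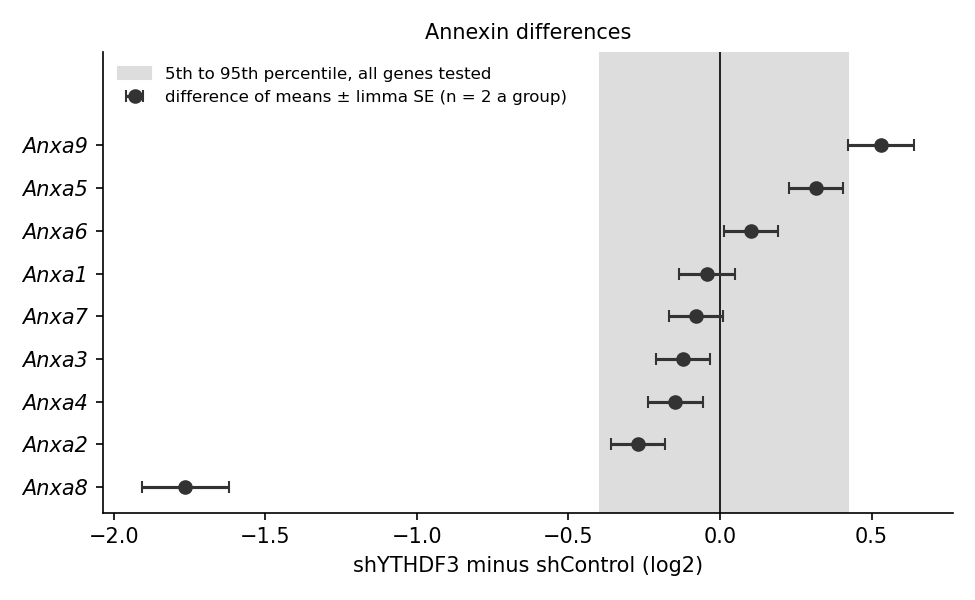
Difference of group means on the log2 scale, shYTHDF3 minus shControl, for the 9 measured annexins, with limma's SE as bars (n = 2 a group). The grey band spans the 5th to 95th percentile of the 13056 genes tested, -0.40 to 0.42. Anxa8, at -1.76, and Anxa9, at 0.53, lie outside the band.

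The upstream sequences of Anxa8, Anxa2, Anxa5 and Anxa9 are shown because these members had the 4 largest differences, in opposite directions. Each is the 250 bases before the RefSeq start site on build GRCm38.p6, written 5′ to 3′ along the gene. For Anxa9, which has a second RefSeq start inside the gene, the outermost start was used. The probe sets do not say which start is used in these cells. Capitals mark matches to any of 10 motifs searched on both strands.

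Anxa8 (chr14:34085729-34085978, + strand): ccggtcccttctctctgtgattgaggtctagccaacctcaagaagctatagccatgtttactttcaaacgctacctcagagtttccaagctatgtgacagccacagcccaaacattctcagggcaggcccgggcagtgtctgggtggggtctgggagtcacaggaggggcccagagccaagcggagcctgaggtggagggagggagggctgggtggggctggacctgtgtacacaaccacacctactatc

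Anxa2 (chr9:69453433-69453682, + strand): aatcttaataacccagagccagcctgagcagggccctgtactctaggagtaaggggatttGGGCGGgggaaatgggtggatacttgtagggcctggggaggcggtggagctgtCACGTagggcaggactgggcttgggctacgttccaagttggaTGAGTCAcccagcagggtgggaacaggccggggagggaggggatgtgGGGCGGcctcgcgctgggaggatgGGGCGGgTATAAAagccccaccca

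Anxa5 (chr3:36475888-36476137, - strand): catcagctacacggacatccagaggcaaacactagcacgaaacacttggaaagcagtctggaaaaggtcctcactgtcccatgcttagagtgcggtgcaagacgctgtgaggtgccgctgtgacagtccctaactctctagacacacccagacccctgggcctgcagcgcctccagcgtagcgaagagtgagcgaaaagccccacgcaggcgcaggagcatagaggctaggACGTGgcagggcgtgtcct

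Anxa9 (chr3:95315181-95315430, - strand): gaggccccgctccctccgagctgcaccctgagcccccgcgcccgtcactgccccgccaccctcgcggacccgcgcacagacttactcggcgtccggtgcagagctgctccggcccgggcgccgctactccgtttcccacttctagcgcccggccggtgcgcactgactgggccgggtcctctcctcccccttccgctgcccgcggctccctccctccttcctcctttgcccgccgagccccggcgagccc

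The motifs were a TATA box (TATAAA), a GC box (GGGCGG), an AP-1 element (TGANTCA), a C/EBP element (TTGCNNAA), a STAT element (TTCNNNGAA), an NF-kB element, a glucocorticoid response element, a hypoxia response element (ACGTG), a TEAD element (GGAATG) and an E-box (CACGTG). Every E-box also holds the hypoxia letters. A match describes letters and not a bound factor. The Anxa8 window and the outermost Anxa9 window hold none of the 10, which says only that these letters are not in these 250 bases. The window at the inner Anxa9 start holds a hypoxia element 60 bases before it.

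The Anxa2 window holds a TATA box 17 bases before the start, 3 GC boxes, an AP-1 element 95 bases before the start and a hypoxia element 137 bases before it. Among all 32851 mouse promoter windows of the same length, 12.4% hold the TATA letters, 32.7% the GC box, 6.75% the AP-1 letters and 16.6% the hypoxia letters. The Anxa5 window holds a hypoxia element 19 bases before the start. CpG pairs numbered 4 in the Anxa8 window, 9 in that of Anxa2, 13 in that of Anxa5 and 30 in that of Anxa9. The median over all windows was 6, and these 4 counts follow neither direction of difference, since Anxa8 lies below that median and Anxa2, also lower, above it. The window at the inner Anxa9 start holds 3 CpG pairs, fewer than that of Anxa8, so the place of Anxa9 depends on the start used.

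Among the other members with a RefSeq window, Anxa1 has a TATA box 32 bases and a C/EBP match 143 bases before its start. A C/EBP match also lies 208 bases before the inner start of Anxa4, and the C/EBP letters occur in 9.56% of all windows. The Anxa1 window also holds a TEAD match, letters found in 12.6% of all windows. The windows of Anxa7 hold GC boxes, hypoxia elements and an E-box (6.02% of all windows), and that of Anxa11 holds GC boxes. An NF-kB match lies 55 bases before the outermost start of Anxa4, and these letters occur in 1.21% of all windows. Of the 10 members, 8 had a window, and Anxa3 and Anxa6 had none.

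The genes whose profiles over the 4 arrays lay nearest to that of Anxa8 were sought among all genes tested. Likeness was the root-mean-square distance between profiles after each gene was centred on its own mean. The 5 nearest were Cebpd, Cfb, Saa3, Hp and Steap1, at distances of 0.069, 0.099, 0.157, 0.175 and 0.176 log2 units. Cebpd, the transcription factor C/EBP delta, read 6.06 and 6.48 in shControl against 4.33 and 4.71 in shYTHDF3. Like Anxa8, it was higher on shControl replicate 2 than on replicate 1 and higher on shYTHDF3 replicate 2 than on replicate 1. A choice by profile favours that order, which Cfb and Saa3 also showed.

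Cfb, complement factor B, read 7.69 and 7.89 in shControl against 5.76 and 5.94 in shYTHDF3. Saa3, a serum amyloid A gene, read 11.09 and 11.25 in shControl against 8.98 and 9.27 in shYTHDF3. Hp, haptoglobin, read 6.57 and 7.07 in shControl against 5.35 and 5.22 in shYTHDF3. Steap1, a membrane protein of the STEAP family, read 9.08 and 8.96 in shControl against 7.33 and 7.36 in shYTHDF3. In all of these, as in Anxa8, both shYTHDF3 arrays were below both shControl arrays, which is what the choice by profile selects.

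**Figure D3:**
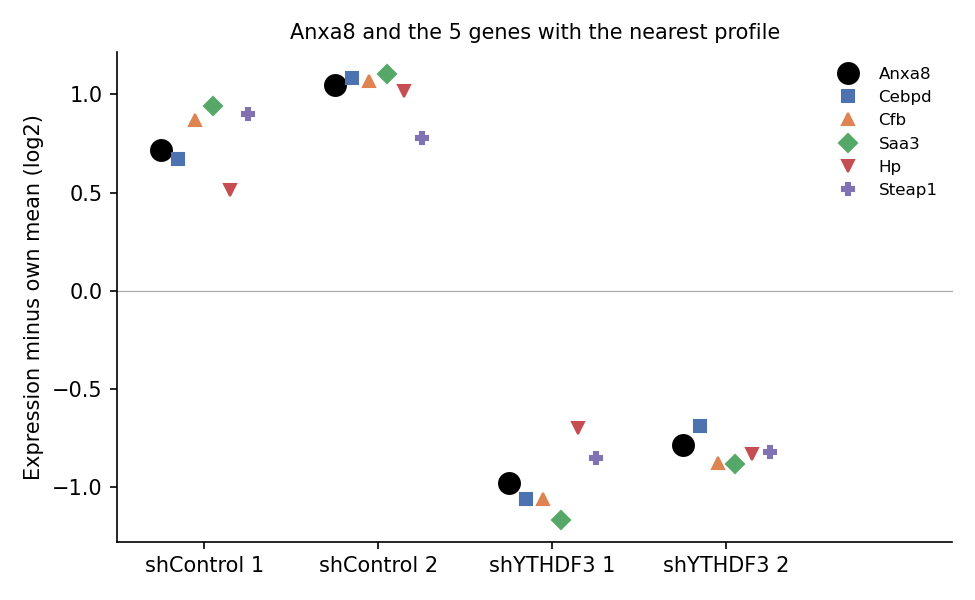
Log2 expression minus the gene's own mean over the 4 arrays for Anxa8 (black) and the 5 genes with the nearest profile, on each array. All 6 genes are above 0 on both shControl arrays and below 0 on both shYTHDF3 arrays. Cebpd lies closest to Anxa8, at a distance of 0.069 log2 units.

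Proteins that bind annexins, or act as their receptors, showed mostly small differences. Of 14 such genes, 11 lay above background and were tested. Plat, the tissue plasminogen activator that the complex of annexin A2 and S100A10 binds, fell, and the other 10 did not pass limma's test over all genes, of which 1.45% were called lower. Plat read 7.51 and 7.54 in shControl against 7.00 and 6.85 in shYTHDF3, a difference of -0.60 (SE 0.10, limma adjusted p = 0.0441). The list median was 0.03. The Plat call was lost without a filter on dim probe sets and when any 1 array was left out.

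S100a10, which encodes the partner of annexin A2, read 11.75 and 11.81 in shControl against 12.00 and 11.88 in shYTHDF3. Its difference of 0.16 (SE 0.10, limma adjusted p = 0.394) did not pass, and its sign was opposite to that of Anxa2. S100a11, which encodes a partner of annexin A1, differed by -0.13 (SE 0.10, limma adjusted p = 0.483). Ahnak, a giant scaffold bound by the annexin A2 complex, differed by 0.24 (SE 0.09, limma adjusted p = 0.209). Pdcd6, a calcium sensor that binds annexins A7 and A11, differed by -0.15 (SE 0.10, limma adjusted p = 0.414), and Sri, sorcin, which binds annexin A7, by 0.17 (SE 0.11, limma adjusted p = 0.410). These 5 were singled out for the annexin they bind, after their values were seen. Fpr2, a receptor of annexin A1, lay below background.

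Genes of plasma membrane repair, a process in which annexins seal torn membrane, were also mostly small in difference. Of 20 listed, 18 were tested, Cav1 fell and 17 did not pass, beside 1.45% of all genes called lower. Cav1, the caveolae protein caveolin 1, read 7.02 and 7.11 in shControl against 5.98 and 6.20 in shYTHDF3. Its difference was -0.98 (SE 0.11, limma adjusted p = 0.0262), and the call was lost without a filter on dim probe sets and when any 1 array was left out. The list median was -0.01. The lists of partners and of membrane repair share Dysf, Pdcd6 and Ahnak.

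The copines are another family of proteins that bind phospholipid in a calcium-dependent way. None of the 6 tested passed limma's test, beside 2.73% of all genes called. An unadjusted limma p under 0.05 was found for 2 of them, beside 22.6% of all genes. The largest difference was that of Cpne8, at -0.36 (SE 0.11, limma adjusted p = 0.143), and the list median was 0.04.

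Annexins were once called lipocortins because annexin A1 was studied as an inhibitor of phospholipase A2, which frees arachidonic acid for eicosanoid synthesis. Of 18 genes of this pathway, 14 were tested, 3 fell and 11 did not pass, beside 1.45% of all genes called lower, with a list median of -0.18. Ptgs2, the inducible cyclooxygenase, read 11.12 and 10.92 in shControl against 9.00 and 9.15 in shYTHDF3, a difference of -1.95 (SE 0.11, limma adjusted p = 0.00553). Pla2g4a, the cytosolic phospholipase A2, read 9.60 and 9.55 in shControl against 8.74 and 8.85 in shYTHDF3, a difference of -0.78 (SE 0.10, limma adjusted p = 0.0286). The third, Pla2g15, a lysosomal phospholipase named because the count is small, fell by 0.56 (SE 0.09, limma adjusted p = 0.0458). The Pla2g15 call was lost once arrays were set to a common median, and once genes were averaged over their probe sets. The Pla2g4a and Pla2g15 calls were lost without a filter on dim probe sets and when any 1 array was left out, and that of Ptgs2 ended in 3 of the 4 fits with 1 array left out, remaining without shYTHDF3 replicate 2.

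Anxa1 is a textbook target of the glucocorticoid receptor, so genes of that response were set beside it. Of 14 tested, 4 fell and 10 did not pass, beside 1.45% of all genes called lower, with a list median of -0.24. Cebpd differed by -1.75 (SE 0.19, limma adjusted p = 0.0240) and Ddit4, an inhibitor of mTORC1 signalling, by -1.33 (SE 0.13, limma adjusted p = 0.0227). The other called genes, named because the count is small, were Dusp1, a MAP kinase phosphatase (-1.33, SE 0.13, limma adjusted p = 0.0214), and Sgk1, a serum- and glucocorticoid-induced kinase (-0.57, SE 0.10, limma adjusted p = 0.0484). Tsc22d3 and Per1, widely used readouts of the receptor, differed by -0.06 (SE 0.11, limma adjusted p = 0.804) and 0.03 (SE 0.09, limma adjusted p = 0.872). Tsc22d3, at 4.60 in shControl, lay close to the background level of 4.28, which left little room for a fall. Nr3c1, the receptor itself, differed by 0.12 (SE 0.10, limma adjusted p = 0.516). Of other common readouts, Fkbp5 differed by -0.29, Klf9 by -0.33 and Errfi1 by -0.31, each lower on both shYTHDF3 arrays and none passing (limma adjusted p = 0.243, 0.144 and 0.153). In the rest of the list, Mt2 differed by -0.08 and was lower on both shYTHDF3 arrays. Mt1, Zfp36 and Zbtb16 differed by -0.19, -0.06 and 0.02, with groups that overlapped. The genes of this list that did not pass were named after their values were seen. All 4 calls ended when any 1 array was left out, and those of Cebpd and Sgk1 also without a filter on dim probe sets, and that of Sgk1 with arrays shifted to a common median. The lists were written with earlier results known, and Ptgs2, Cebpd, Ddit4 and Dusp1 are among the genes those results had already shown to be lower.

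**Figure D4:**
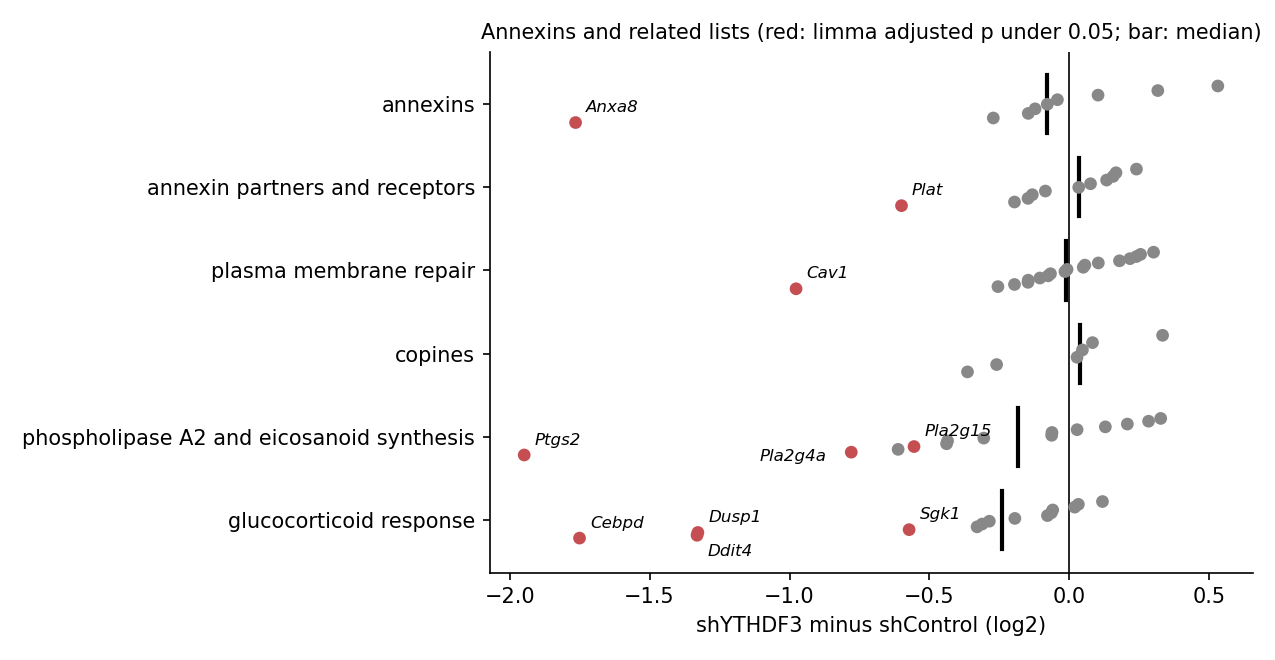
Difference of group means on the log2 scale, shYTHDF3 minus shControl, for each gene above background among the annexins and 5 related lists. Each point is a gene, red points passed limma's test over all genes, and black bars are list medians. The lists of partners, membrane repair and copines have medians between -0.01 and 0.04. The medians are -0.18 for eicosanoid synthesis, -0.24 for the glucocorticoid response, -0.08 for the annexins and 0.0057 for all genes tested. The lists were written with earlier results known, so nothing is read from how their medians differ.

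Markers of cell types were read as a check on the labelled line. Krt8 and Krt18, keratins of simple epithelia, stood at 10.11 and 10.51 in shControl, far above background, whereas Epcam, a common epithelial marker, and Krt14, a basal keratin, lay below it. Of 5 epithelial markers tested Krt7 rose, by 1.50 (SE 0.10, limma adjusted p = 0.00816), and 4 did not pass, beside 1.28% of all genes called higher. Of these 4, Krt18, Krt8 and Cdh1 differed by 0.57, 0.31 and 0.10 (limma adjusted p = 0.0527, 0.151 and 0.612). Krt19 went the other way, by -0.53 (SE 0.12, limma adjusted p = 0.0816). Cdh1, at 4.42 in shControl, lay close to the background level of 4.28. Of 7 fibroblast markers tested, Dcn and Pdgfra fell and 5 did not pass, beside 1.45% of all genes called lower. The differences of Dcn and Pdgfra were -2.65 and -0.61 (SE 0.12 and 0.10, limma adjusted p = 0.00474 and 0.0471). The Pdgfra call was lost without a filter on dim probe sets and with a common median. Lum lay below background. The log2 of the summed linear values of all 8 fibroblast markers was 9.98 to 10.04 in shControl against 9.32 to 9.35 in shYTHDF3, most of it from Pdgfra. Of the 5 that did not pass, Col1a1 and Pdgfrb differed by 0.10 and 0.21 (limma adjusted p = 0.767 and 0.243). Thy1, Col3a1 and Col1a2 differed by -0.44, -0.23 and -0.05 (limma adjusted p = 0.135, 0.510 and 0.918). The list median was -0.23. For the 7 epithelial markers the sum, most of it from Krt18 and Krt8, was 11.38 and 11.49 in shControl against 11.93 and 11.85 in shYTHDF3. For the 6 myeloid markers it was 7.79 and 8.01 against 7.37 and 7.44. For the 5 endothelial markers it was 6.25 and 6.24 against 6.31 and 6.21. The part of these sums in the Anxa8 difference was not tested. In bulk RNA, fewer cells of a type and less RNA per cell cannot be told apart. Of 6 myeloid markers, Cd68 alone was above background (-0.72, SE 0.13, limma adjusted p = 0.0547), and of 5 endothelial markers Cdh5 alone was, at -0.05 (SE 0.10, limma adjusted p = 0.796). Krt8, Krt18, Krt19, Cdh1, Epcam, Krt14, Lum, Col1a1, Pdgfrb, Thy1, Col3a1, Col1a2 and, above, Fpr2 were named after their values were seen. The Krt7 and Pdgfra calls ended when any 1 array was left out, and that of Dcn ended without either shControl array.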

How the data were processed

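The authors deposited 1 value per probe set and array, made with RMA per the submitters' processing notes; RMA returns log2 values, and the deposited values were taken as log2 from that and from their range. Its software was not given in the sources used here. Because RMA makes array distributions alike, a shift shared by most genes would not be seen. Array medians ran from 4.42 to 4.47, and having only 4 arrays limits the precision.

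The platform annotation gave 23521 of 41345 probe sets 1 symbol, updated through Entrez identifiers for 23328. A gene's value was its probe set with the highest mean. Background was the 95th percentile of 1108 olfactory receptor probe sets, log2 4.28. Genes above it (13056) were fitted with limma 3.58.1 in R 4.3.3 (lmFit and eBayes, two-sided, Benjamini-Hochberg over all genes tested, threshold 0.05). The limma fit alone was also run on simulated data. The differences put into those data were larger than most of those called here, so the run does not cover smaller ones.

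The members and lists were chosen with earlier results of these data known. The genes named were the members, Ythdf3, Anxa10, Anxa13, up to 2 called genes per list and direction with the largest change (or, with none, the largest difference), and the 5 profiles nearest to Anxa8; others are named as chosen afterwards. The alternatives were other filters, an intensity trend, 2 other scalings, mean probe sets, a replicate block and leaving out each array. Figures used matplotlib 3.10.9 in Python 3.11.15.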

Additional observations from a re-analysis of the deposited data

Results flagged for a closer look

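Anxa11 was not part of the comparison because its 3 annotated probe sets also carry the symbols Gm2274 and Gm2260, so what they measured cannot be given to Anxa11 alone. They were looked at because they hold annexin signal outside the main measurement, above the control arrays. For probe set 17297759 the values were 9.70 and 9.70 in shControl against 9.81 and 9.74 in shYTHDF3, a difference of 0.074 (105% of the shControl level). Probe sets 17297801 and 17297833 hold identical values, 11.09 and 11.10 in shControl against 11.18 and 11.12 in shYTHDF3, a difference of 0.059 each, so they count once. In all of them both shYTHDF3 values were the higher ones, by a gap of 0.037 or 0.023, which 28.3% of all genes tested also showed in that direction.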

How the results depend on the processing

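Under each alternative that kept all 4 arrays limma called Anxa8, alone except with an intensity trend, which called 4 members (Anxa2, Anxa5, Anxa8 and Anxa9). Without any 1 array 0 were called, with 2 to 3 at an unadjusted p under 0.05. Of 13056 genes tested 356 were called; 43 were called without the filter on dim probe sets, 1426 with an intensity trend, 51 with the replicate block, and 0 to 12 without 1 array (1786 to 2607 at an unadjusted p under 0.05). In the related and marker lists 12 of 74 genes tested were called, beside 2.73% of all genes. The lists were written with earlier results of these data known, so nothing is read from that count. With the trend 24 were called and with the block 6, whereas without the filter 5 of 95 list genes tested were called. The block ended the calls of Plat, Cav1, Pla2g4a, Pla2g15, Sgk1 and Pdgfra. Without 1 array nearly all of the list calls were lost. Ythdf3 stayed at -0.71 and lost its call without the filter (limma adjusted p = 0.0866) and with the block (0.0758); without 1 array it ran from -0.79 to -0.63. Fits with fewer arrays have fewer residual degrees of freedom; the other causes were not tested. The replicate numbers did not pair the arrays (correlation of deviations -0.066). Other filters, the trend, mean probe sets and the block could not move a member's difference. Each member has 1 probe set, and each replicate number occurs once per group. In the 2 other scalings and the 4 fits without 1 array, where a difference could move, every member except Anxa1 kept its sign.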
